A study of Mus musculus with 6 samples.

Results

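Genes that activate long-chain fatty acids and oxidise them in mitochondria were examined in the sciatic nerve of mice that lack Srebf-1c. The set was fixed by function as 32 genes of 5 steps: 5 acyl-CoA synthetases, 7 genes of the carnitine shuttle, 16 genes of the oxidation cycle and its side reactions, 3 of electron transfer and 1, Acat1, of ketone body metabolism. Of these, 29 were measured, among 22180 genes on the array. Acsl1 is not listed in the platform annotation used here, and the probe sets of Acsl3 and Cpt1b carry the symbols of several genes, so these 3 genes have no value. The members were chosen by function, with no measured value in the rule.

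Whole sciatic nerves were taken from mice at 10 months of age, 3 samples from wild-type littermates and 3 from Srebf-1c KO mice, and each was hybridised to 1 Affymetrix whole-transcript array. The labels name no treatment for either group, and they give no strain, sex or construct of the allele. The sciatic nerve is the large nerve of the leg, in which Schwann cells wrap axons, and Srebf-1c is the form of Srebf1 known for driving genes of fatty acid synthesis. For the KO samples 1 label field says wild type while titles and genotype say KO; titles were followed. Srebf1 had log2 intensities of 9.53 to 9.70 under wild-type titles and 8.04 to 8.11 under KO titles. Its log2 fold change was -1.52 ± 0.11 (SE; limma adjusted p = 0.0497), and it was the only gene past an adjusted p of 0.05, which is 0.00451% of the genes tested. The adjusted p missed 0.05 with each array left out in turn, in the unmoderated test, with arrays at 1 median, with the muscle or adipocyte covariate and with the replicate block (0.0502 to 0.764), while the log2 fold change stayed between -1.57 and -1.47. Whether each numbered replicate is a separate mouse is not stated, so p-values reflect sample-to-sample spread that could be technical in part.

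Fatty acids enter oxidation as coenzyme A esters, made by the acyl-CoA synthetases. Long-chain esters cross the inner mitochondrial membrane bound to carnitine: Cpt1 enzymes load them, the carrier Slc25a20 moves them and Cpt2 unloads them, and malonyl-CoA, the product of the first step of fatty acid synthesis, blocks Cpt1. Each turn of beta-oxidation then runs through a dehydrogenase, a hydratase, a second dehydrogenase and a thiolase. Electrons from the first dehydrogenase are passed by the electron transfer flavoprotein to the respiratory chain. In nerve, Schwann cells both make fatty acids for myelin and can burn them, and muscle and fat next to the nerve express the same genes.

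Some of these genes share more than a pathway. Hadha and Hadhb, the alpha and beta subunits of the mitochondrial trifunctional protein, lie head to head on chromosome 5, with starts 273 bases apart. The stretch between the starts is shown because a sequence of 272 bases serves as the upstream region of both subunits, followed by the upstream regions of the 2 genes with the largest differences between genotypes, Etfa and Acadl (250 bases before each start, on the gene's strand). They were read from RefSeq on GRCm38.p6, and capitals mark GGGCGG (the GC box) and CCAAT on either strand.
Hadha-Hadhb, chr5:30154981-30155252, plus strand: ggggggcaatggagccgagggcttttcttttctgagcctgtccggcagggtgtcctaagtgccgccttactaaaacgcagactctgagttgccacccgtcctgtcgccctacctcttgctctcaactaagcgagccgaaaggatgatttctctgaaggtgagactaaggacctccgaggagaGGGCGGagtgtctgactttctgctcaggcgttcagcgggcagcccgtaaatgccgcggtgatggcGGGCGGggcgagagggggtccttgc
Etfa, chr9:55512244-55512493, minus strand: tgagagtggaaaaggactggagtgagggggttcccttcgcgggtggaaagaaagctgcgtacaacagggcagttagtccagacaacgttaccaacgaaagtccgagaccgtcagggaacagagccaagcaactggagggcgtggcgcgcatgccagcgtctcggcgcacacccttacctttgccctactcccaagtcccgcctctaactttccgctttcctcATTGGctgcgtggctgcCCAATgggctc
Acadl, chr1:66863310-66863559, minus strand: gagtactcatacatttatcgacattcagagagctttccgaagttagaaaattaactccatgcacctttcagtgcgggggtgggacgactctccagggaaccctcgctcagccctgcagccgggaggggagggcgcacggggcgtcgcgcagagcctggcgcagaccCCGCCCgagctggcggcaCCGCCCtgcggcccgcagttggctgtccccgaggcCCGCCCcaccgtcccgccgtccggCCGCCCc
The stretch between Hadha and Hadhb holds 2 GC boxes and no CCAAT, that of Acadl 4 GC boxes and no CCAAT, and that of Etfa 2 CCAAT and no GC box. The RefSeq table held 29 windows of 300 bases (250 before to 50 after a start) for 26 of the 32 members. GGGCGG was present in 22 of these windows (75.9%) against 35.7% of all 32851 windows, and CCAAT in 14 (48.3%) against 37.4%. The PPAR-RXR direct repeat, AGGTCA repeated after 1 base and searched on both strands like the others, was in 0 of the 29 windows and in 0.0396% of all. The sterol response element core TCACNCCAC was in 1 window (1.24% of all), of Acsl1, which has no value here. The estrogen-related receptor element TCAAGGTCA was in 1 window (0.423% of all), of Acsl6, at position -167 from the start. This element contains AGGTCA, the unit of the direct repeat. A match is a description of the letters only. Of the 26 members with a window, 6 (23.1%) lay in a divergent pair with starts at most 500 bases apart, against 10.9% of all 27025 genes with a window.

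Mean levels of most members were slightly higher in Srebf-1c KO nerve, and no member passed the test. Of 29 members, 22 had a higher mean in KO (75.9%, against 43.1% of all genes tested) and 7 a lower one. Differences were small: the median log2 fold change was 0.13, against -0.03 over all genes, and single genes ran from -0.14 for Acsl4 to 0.33 for Etfa. In limma 0 of 29 members passed an adjusted p of 0.05, and the smallest adjusted p was 0.867. With no adjustment, p fell below 0.05 for 0 members in limma (5.83% of all genes) and for 1, Eci2, in the unmoderated test that the series' design text names (3.45% of members, against 6.37% of all genes). The study's criterion, an unadjusted p under 0.05 with at least 1.5-fold change, was met by 0 members and 1.19% of all genes with limma's p, and by 0 members and 0.622% of all genes with the unmoderated p that the study used. The 95% confidence interval of the log2 fold change spanned 0 for all 29 members, and for 20887 of the 22180 genes tested. It lay within 1.5-fold in either direction for 17 of 29 members and for 13577 of all genes. Within 2-fold it lay for all 29 members and for 20365 of all genes.

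**Figure D1:**
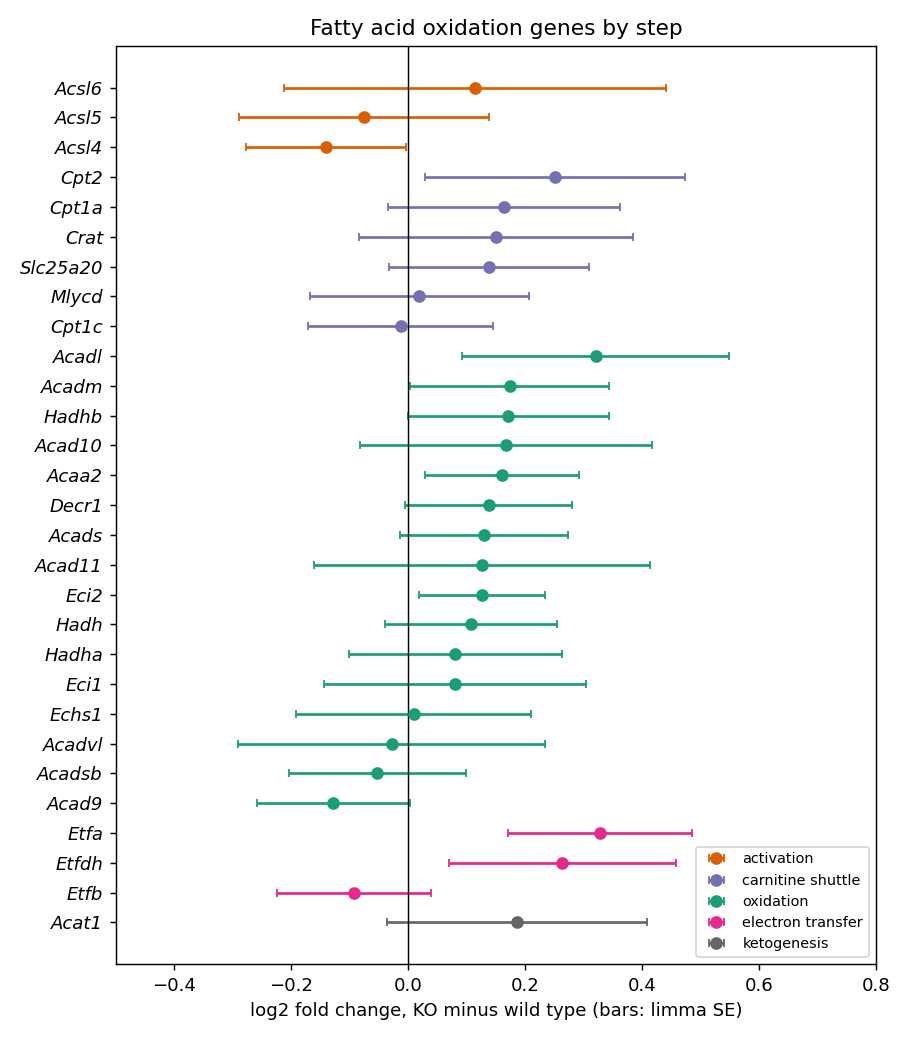
Log2 fold change, Srebf-1c KO minus wild type, of the 29 measured members, coloured by step and ordered by size within a step; points are limma estimates and bars are standard errors. Most points lie right of 0, between -0.14 for Acsl4 and 0.33 for Etfa, and the bars of many reach 0.

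The count of higher means depended on 2 arrays. KO replicate 1 had the highest value of the 6 arrays for 18 of 29 members (62.1%, against 12.8% of all genes), and wild-type replicate 2 the lowest for 14 (48.3%, against 18.1%). KO replicate 1 exceeded every wild-type array for 19 members, whereas KO replicates 2 and 3 each did so for 3. These counts were not taken over all genes, so they have no share to be set against. Without KO replicate 1 the number of members with a higher mean was 15 of 29 and the median log2 fold change 0.036. Without wild-type replicate 2 these values were 14 of 29 and -0.0044. Leaving out any of the other 4 arrays gave 21 to 24 members with a higher mean. By step, the median without KO replicate 1 was 0.036 for activation, 0.013 for the carnitine shuttle, -0.011 for oxidation and 0.082 for electron transfer.

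**Figure D2:**
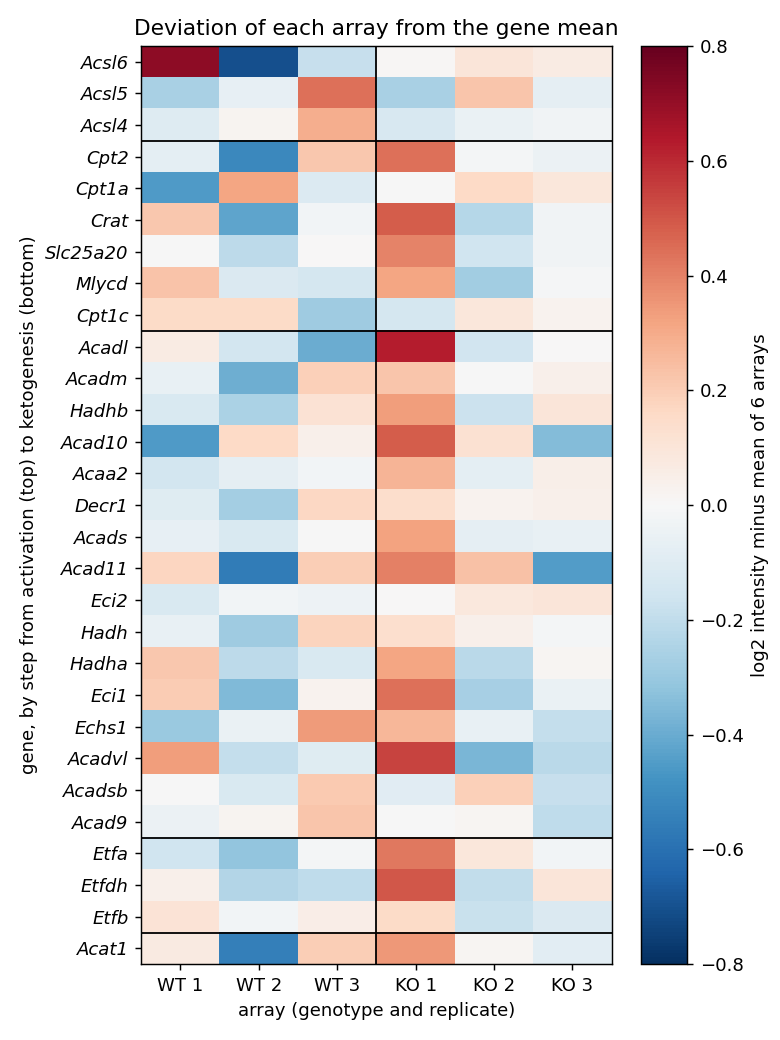
Log2 intensity of each measured member on each array minus the gene's mean over the 6 arrays, from blue (below the mean) to red (above it); horizontal lines part the steps and the vertical line parts wild type from KO. The column of KO replicate 1 is red for most genes below the activation step and that of wild-type replicate 2 is mostly blue.

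Of the steps with several measured genes, electron transfer had the highest median, a log2 fold change of 0.26 over 3 genes, of which 2 had a higher mean in KO. Etfa and Etfb are the subunits of the electron transfer flavoprotein, which takes electrons from the acyl-CoA dehydrogenases, and Etfdh hands them on to ubiquinone. Etfa had log2 intensities of 9.58, 9.43 and 9.72 in wild type, against 10.17, 9.83 and 9.72 in KO. The lowest KO value thus lay level with the highest wild-type value, and the other KO arrays lay above all wild-type arrays. The mean was 1.26-fold higher in KO, a log2 fold change of 0.33 ± 0.16 (SE; 95% interval -0.04 to 0.70; limma adjusted p = 0.867, unadjusted p = 0.0743). Without KO replicate 1 it was 0.20.

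Etfdh stood at 10.29, 10.01 and 10.04 in wild type, against 10.74, 10.05 and 10.34 in KO. Here 2 KO arrays were above all wild-type arrays and KO replicate 2 lay among them. The log2 fold change was 0.26 ± 0.19 (SE; adjusted p = 0.892) and came to 0.082 without KO replicate 1. Etfb, the partner subunit of Etfa, had 10.94, 10.81 and 10.88 in wild type, against 10.98, 10.65 and 10.71 in KO. Its KO values lay on either side of all wild-type values, with a log2 fold change of -0.09 ± 0.13 (SE). The subunits of the flavoprotein thus had means on opposite sides of 0, a difference between genes that was not tested.

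**Figure D3:**
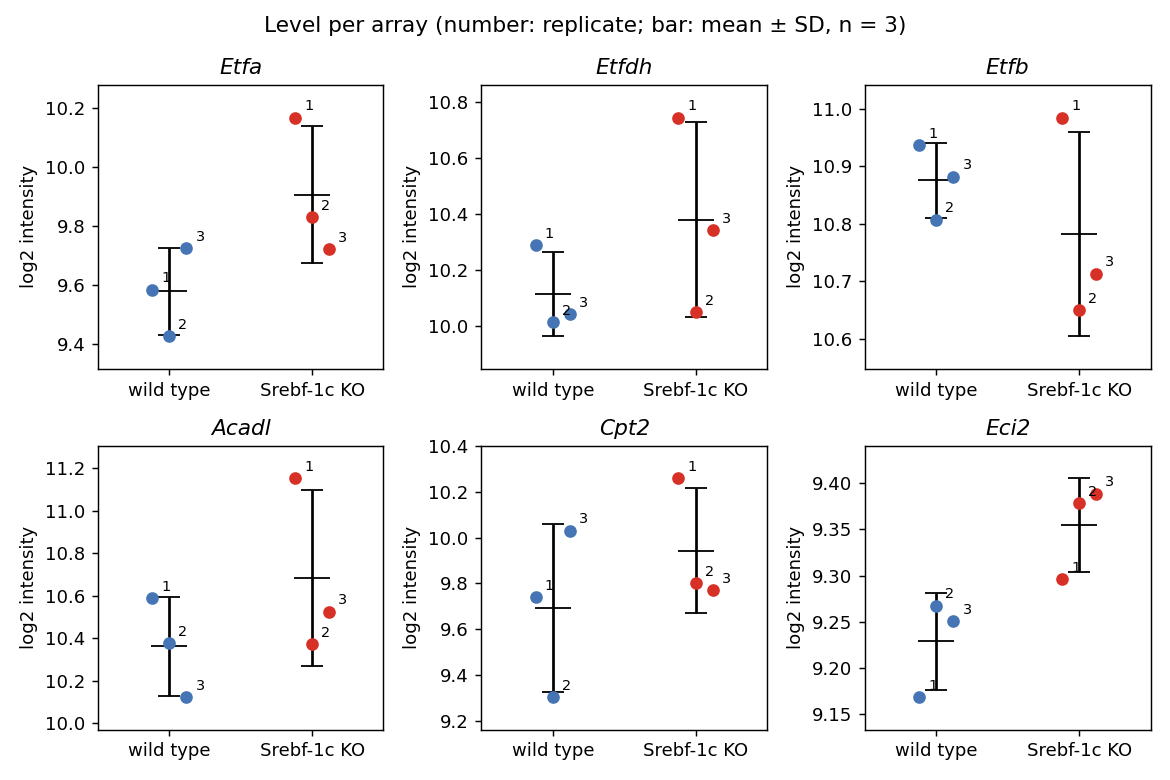
Log2 intensity per array of Etfa, Etfdh, Etfb, Acadl, Cpt2 and Eci2 in wild type (blue) and Srebf-1c KO (red); numbers are replicates, the horizontal mark is the mean and the bar the SD (n = 3), and each panel has its own axis. KO replicate 1 is the highest point in every panel but that of Eci2, whose KO values of 9.30 to 9.39 all lie above the wild-type values of 9.17 to 9.27.

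In the oxidation cycle, 13 of 16 genes had a higher mean in KO, with a median log2 fold change of 0.13. The acyl-CoA dehydrogenases, which open each turn, differ in the chain length they prefer. Acadl, known for long and branched chains, had 10.59, 10.38 and 10.13 in wild type, against 11.15, 10.37 and 10.53 in KO. KO replicate 1 alone exceeded the wild-type arrays. Its log2 fold change was 0.32 ± 0.23 (SE; adjusted p = 0.892), and 0.086 without KO replicate 1. The medium-chain enzyme gene Acadm stood at 0.17 ± 0.17 (SE) and the short-chain Acads at 0.13 ± 0.14. Acadvl, the membrane-bound enzyme for very long chains, stood at -0.03 ± 0.26, with KO values that ran from 8.91 to 9.82 and enclosed the wild-type values of 9.09 to 9.61.

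The other dehydrogenase genes of the family scattered around 0. Acadsb, which acts on short branched acyl-CoA from isoleucine, stood at -0.05 and Acad9, best known for the assembly of respiratory complex I, at -0.13 ± 0.13 (SE). Acad10 stood at 0.17 and Acad11 at 0.13, with SEs of 0.25 and 0.29 that were among the widest of the set. For Acad11, 1 array of each genotype was low: wild-type replicate 2 at 8.01 and KO replicate 3 at 8.12, against 8.74 to 8.96 on the other 4.

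The trifunctional protein carries out the remaining reactions on long chains. Hadha, its hydratase and dehydrogenase subunit, had 11.39, 10.97 and 11.06 in wild type, against 11.50, 10.97 and 11.20 in KO, a log2 fold change of 0.08 ± 0.18 (SE). Hadhb, its thiolase subunit, had 7.47, 7.34 and 7.72 in wild type, against 7.93, 7.42 and 7.69 in KO, a log2 fold change of 0.17 ± 0.17. The groups overlapped for both subunits. Both genes, whose shared upstream stretch is given above, were highest on KO replicate 1. Wild-type replicate 2 and KO replicate 2 were the 2 lowest arrays for Hadha, and they were the lowest for Hadhb as well. Values of the 2 subunits come from different probe sets, so their levels cannot be set against each other.

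For shorter chains the cycle is run by separate enzymes. The hydratase gene Echs1 stood at 0.01 ± 0.20 (SE) and the dehydrogenase gene Hadh at 0.11 ± 0.15. The thiolase gene Acaa2, which closes the turn, had 11.01, 11.09 and 11.14 in wild type, against 11.44, 11.08 and 11.21 in KO. In KO, 2 arrays exceeded all wild-type arrays and KO replicate 2 did not, with a log2 fold change of 0.16 ± 0.13 (SE; adjusted p = 0.899).

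Unsaturated fatty acids need auxiliary enzymes that shift or reduce their double bonds. Eci2, an enoyl-CoA isomerase, was the single member whose groups did not overlap, that is 3.45% of members against 12.3% of all genes, or 4.08% of all genes counting only those higher in KO. Its log2 intensities were 9.17, 9.27 and 9.25 in wild type, against 9.30, 9.38 and 9.39 in KO. The difference was small, 0.13 ± 0.11 (SE), or 1.09-fold, and did not pass in limma (adjusted p = 0.903). With each array left out in turn it stayed between 0.096 and 0.15. Eci1, the related isomerase gene, stood at 0.08 ± 0.22 and the dienoyl-CoA reductase gene Decr1 at 0.14 ± 0.14.

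The carnitine shuttle had 5 of 6 measured genes with a higher mean in KO and a median log2 fold change of 0.14. Cpt2, which returns acyl groups to coenzyme A inside the mitochondrion, had 9.74, 9.30 and 10.03 in wild type, against 10.26, 9.80 and 9.77 in KO. KO replicate 1 was the highest, and the other KO arrays lay between wild-type replicates 1 and 3. Its log2 fold change was 0.25 ± 0.22 (SE; adjusted p = 0.906) and came to 0.057 without wild-type replicate 2. The carrier gene Slc25a20 stood at 0.14 ± 0.17 and Crat, which makes acetylcarnitine, at 0.15 ± 0.23, where a dimmer probe set of Crat gave -0.02.

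Cpt1 is the step that malonyl-CoA controls. Cpt1a, the form known from liver and many other tissues, had 10.09, 10.85 and 10.43 in wild type, against 10.53, 10.70 and 10.63 in KO. All KO values fell inside the wild-type range, with a log2 fold change of 0.16 ± 0.20 (SE; adjusted p = 0.939). Its arrays were ordered otherwise than those of most members: wild-type replicate 2, the lowest array for 14 members, was the highest for Cpt1a, and wild-type replicate 1 the lowest. Cpt1c, a form found in neurons that has little of the enzyme activity of its relatives, stood at -0.01 ± 0.16. Mlycd, which degrades malonyl-CoA, stood at 0.02 ± 0.19.

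Activation was the step whose median was lower in KO, at -0.08 over 3 measured genes of 5, of which 2 had a lower mean. The median was above 0 without wild-type replicate 3 (0.049) or KO replicate 1 (0.036). None had its highest value on KO replicate 1, and Acsl4 and Acsl5 had their lowest there. Acsl4, which prefers arachidonic acid, had 8.83, 8.95 and 9.22 in wild type, against 8.80, 8.88 and 8.90 in KO, a log2 fold change of -0.14 ± 0.14 (SE; adjusted p = 0.916). Wild-type replicate 3 stood above the other 5 arrays. Acsl5, known from intestine and liver, had 8.17, 8.36 and 8.86 in wild type, against 8.16, 8.64 and 8.35 in KO, a log2 fold change of -0.08 ± 0.21. The arrays with high Acsl5 were wild-type replicate 3 and KO replicate 2. Acsl6, a form best known from brain, ran from 7.60 to 9.02 in wild type and from 8.31 to 8.40 in KO. Its log2 fold change was 0.11 ± 0.33 (SE), and its dimmer probe set gave -0.14 ± 0.28.

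Acat1, a thiolase that takes part in both making and using ketone bodies, had 10.88, 10.26 and 11.00 in wild type, against 11.15, 10.82 and 10.72 in KO. Wild-type replicate 2 was low and the other 5 arrays ran from 10.72 to 11.15, with a log2 fold change of 0.19 ± 0.22 (SE; adjusted p = 0.937). Without wild-type replicate 2 it was -0.041.

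Other genes of the pathway, taken from a list of 29 by function, showed no excess of higher means. Of 26 measured, 11 had a higher and 15 a lower mean in KO, the median log2 fold change was -0.01, and 0 passed limma at an adjusted p of 0.05 or at an unadjusted p of 0.05. The 4 with the smallest p were the mitochondrial deacetylase gene Sirt3 at -0.26 ± 0.15 (SE), Acad8, of valine breakdown, at -0.31 ± 0.18, Pcca, a subunit of propionyl-CoA carboxylase, at -0.23 ± 0.16, and the ketone body dehydrogenase gene Bdh1 at 0.32 ± 0.25. Genes of branched-chain and other side routes had a lower mean in 7 of 9 cases, where 12624 of all 22180 genes tested had one. Those of carnitine supply and transfer had a higher mean in 3 of 5, with a median of 0.0065.

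Marker genes of muscle and fat also varied across the 6 arrays. All 23 skeletal muscle markers listed, none of them a member, were measured, with a lowest log2 value of 6.46, and 16 had a higher mean in KO. Their summed intensity ran from 57960 to 154916 in wild type and from 84538 to 140269 in KO. A muscle score was taken as the average deviation of these markers from their 6-array means on the log2 scale, and it was 0.85, -0.92 and -0.25 in wild type, against 0.31, -0.37 and 0.38 in KO. The same score over the 29 members was -0.0002, -0.19 and 0.04 in wild type, against 0.24, -0.04 and -0.05 in KO. It was lowest on wild-type replicate 2, which had the lowest muscle score, and highest on KO replicate 1. Wild-type replicate 1, with the highest muscle score, stood near 0. KO replicate 3, with a higher muscle score than KO replicate 1, stood slightly below 0. Adipocyte markers, 10 measured of 12 with 3 higher in KO, summed to 9354 to 35692 in wild type and 8138 to 34736 in KO. They were high on wild-type replicate 3 and KO replicate 2, with scores of 1.63 and 1.50, the arrays where Acsl5 was high. Of the 6 brown fat markers, 3 had a higher mean in KO, and the lowest log2 value was 5.33. Their summed intensity was 6375, 2643 and 4694 in wild type, against 8322, 2731 and 5395 in KO. This sum was lowest on wild-type replicate 2 and highest on KO replicate 1, like many members. Their average deviation, taken as for muscle, was 0.06, 0.17 and -0.20 in wild type, against 0.34, -0.17 and -0.20 in KO. By this score KO replicate 1 was again highest, and wild-type replicate 2 came next. Cox8b and Cox7a1, the brightest of the 6, which muscle also expresses, had the array order of the sum. Ucp1, the defining brown fat gene, was highest on wild-type replicate 2, at 8.88, and stood at 7.01 on KO replicate 1. Cidea and Elovl3 were also highest on wild-type replicate 2, and Dio2 on KO replicate 3. With the muscle score as a covariate 20 of 29 members had a higher estimate in KO (median 0.090), and with the adipocyte score 21 (median 0.12). Their part in the members' levels beyond these fits was not tested, and in whole nerve fewer cells of a type and less RNA per cell cannot be told apart. Schwann cell markers were present on all arrays, 9 measured of 12, and 6 of these had a higher mean in KO. Their summed intensity was 28705, 34314 and 28294 in wild type, against 31798, 29744 and 32576 in KO. It was highest on wild-type replicate 2.

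**Figure D4:**
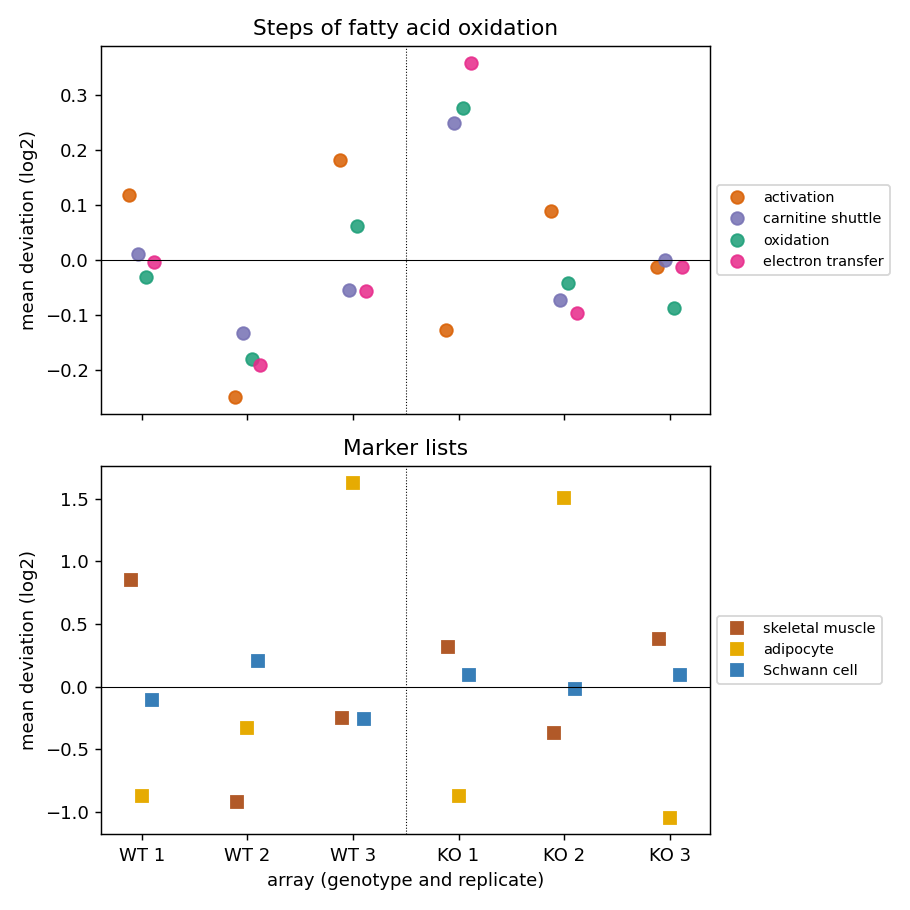
Mean log2 deviation from the 6-array mean for the members of 4 steps (upper panel) and for markers of skeletal muscle, adipocytes and Schwann cells (lower panel), by array; the dotted line parts wild type from KO. Carnitine shuttle, oxidation and electron transfer peak on KO replicate 1 and activation does not, and the muscle score is lowest, at -0.92, on wild-type replicate 2.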

How the data were processed

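The deposited intensity values are probe set intensities which the authors computed with the Robust Multichip Average (background correction, normalization and summary per probe set) in TAC and Partek, per the series' design text. Their linear scale is inferred from their range, the submitters' processing notes name the build mm8, and no software version is stated. Log2 was taken without a pseudocount. Of 41077 probe sets, 23521 had 1 symbol in the platform annotation, and the probe set with the highest 6-array mean stood for its gene, which gave 22180 genes with no filter on dim ones.

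Limma 3.58.1 (R 4.3.3) compared KO with wild type across these genes with moderated two-sided tests, Benjamini-Hochberg adjustment, SEs and 95% intervals. The fit was tested on simulated data. The 3 arrays in each group limit the precision. No arrays were duplicates (at most 0.117% identical values). Members, lists and tests were chosen with earlier results of these data known, and the GC box, CCAAT and divergent pairs were added after values were seen. Array values are printed for the 2 members of each step with the smallest p, for any with non-overlapping groups and, chosen after values were seen, for Etfb, Hadha and Hadhb; of the other pathway genes the 4 with the smallest p are named. Alternatives changed the test (replicate block, ANOVA, trend, array weights), the normalization, the dim filter, the probe set rule, the limits and the arrays, or added a muscle or adipocyte covariate. Plots and joins used Python 3.11.15 with pandas 2.3.3, numpy 2.4.6 and matplotlib 3.10.9.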

Additional observations from a re-analysis of the deposited data

How the results depend on the processing

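No member passed an adjusted p of 0.05 in any alternative (smallest 0.694), at the limit of 0.10 or with a fold limit of 2. Members at an unadjusted p under 0.05 numbered 0 with all arrays, 1 with the methods' ANOVA (Eci2), 1 after quantile normalization (Etfa) and 0 to 1 with an array left out. Members with a higher mean numbered 20 to 24 of 29 in the alternatives on 6 arrays (21 of 28 without the dimmest 50% of genes, where Acad10 was not tested) and 14 to 24 with an array left out, the lowest without wild-type replicate 2. The direction was kept by 23 of 29 members in the 11 alternatives on 6 arrays (10 for Acad10), and by 12 of 29 in these and in all fits with an array left out.

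Directions turned for Acsl6 with the mean of probe sets (-0.011) and the muscle covariate (-0.024), Cpt1c with array weights (0.028) and quantile normalization (0.022), and Mlycd with arrays at 1 median (-0.028), the muscle (-0.040) and the adipocyte covariate (-0.021). They also turned for Acadvl after quantile normalization (0.0063), Acad11 with array weights (-0.035) and Echs1 with array weights (-0.080) and arrays at 1 median (-0.037). The cause was not tested.

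With an array left out, log2 fold changes ran from -0.032 to 0.38 for Acad10, -0.12 to 0.38 for Acad11, -0.00025 to 0.20 for Acads, -0.16 to 0.037 for Acadsb and -0.31 to 0.15 for Acadvl. They ran from -0.041 to 0.33 for Acat1, -0.22 to 0.13 for Acsl5, -0.21 to 0.50 for Acsl6, -0.022 to 0.36 for Cpt1a, -0.16 to 0.059 for Cpt1c and -0.053 to 0.30 for Crat. Ranges were -0.14 to 0.18 for Echs1, -0.12 to 0.23 for Eci1, -0.0078 to 0.22 for Hadh, -0.058 to 0.21 for Hadha, -0.14 to 0.16 for Mlycd and -0.026 to 0.25 for Slc25a20.

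Over all genes, the number past an adjusted p of 0.05 went from 1 to 0 with the replicate block, the methods' ANOVA, arrays at 1 median and the muscle or adipocyte covariate, and was 0 to 1 with an array left out. With all arrays this gene was Srebf1. Without KO replicate 2 it was Vmn1r157 (adjusted p = 0.0298), named here after its value was seen, and Srebf1 missed the limit in each fit with an array left out. Deviations of same-numbered arrays correlated at 0.117, 0.0117 and -0.233, which cannot settle whether the replicate numbers pair the samples. No member passed an adjusted p of 0.05 with or without the replicate block. With the block the unadjusted limma p fell for Acadl (0.203 to 0.0957) and rose for Etfa (0.0743 to 0.0929). The study's criterion was met by 138 genes with the methods' ANOVA, the test that the study used. With limma's p its limits were met by 265 genes, and by 150 and 89 without the dimmest 25% and 50% of genes. Also with limma's p, the count was 231 to 552 with an array left out, and 34 when the fold limit was raised to 2.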

Other observations

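Of the 6 members in a divergent pair, 3 had a measured neighbour outside the set. Brap, whose start lies 53 bases from that of Acad10, had a log2 fold change of -0.31 ± 0.12 (SE; limma adjusted p = 0.850), against 0.17 ± 0.25 for Acad10. The zinc finger gene Ikzf5 stood at -0.12 ± 0.14 beside Acadsb at -0.05 ± 0.15, with starts 123 bases apart, and 4930579G24Rik at -0.04 ± 0.12 beside Etfdh at 0.26 ± 0.19, with starts 312 bases apart. The differences within these pairs were not tested.

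Acacb, which makes the malonyl-CoA that acts on Cpt1 at the mitochondrial surface, had log2 intensities of 9.55, 8.81 and 9.24 in wild type, against 10.14, 8.91 and 9.27 in KO, with a log2 fold change of 0.24 ± 0.33 (SE). It was chosen after its values were seen. Like 18 of 29 members it was highest on KO replicate 1, and like 14 of 29 it was lowest on wild-type replicate 2.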
